A study of Mus musculus with 6 samples.

Results

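The genes described here make peptides for MHC class I, carry them into the endoplasmic reticulum and load them, and 1 of them encodes a transactivator of this pathway. The 10 members were taken by gene symbol from the count table: Psmb8, Psmb9, Psmb10, Psme1, Psme2, Tap1, Tap2, Tapbp, Tapbpl and Nlrc5. All 10 had a row among the 25965 rows of the table, and all 10 were among the 10896 rows that passed the filter on low counts. RNA was sequenced from 6 mouse cell lines that carry BCR-ABL, the oncogenic fusion of the Philadelphia translocation. The 3 control lines (WT1, WT2 and WT3) had been electroporated with the Cas9 plasmid pSpCas9(BB)-2A-GFP(px458). The 3 knockout lines (KO1, KO2 and KO3) had received pSpCas9(BB)-2A-GFP(px458)-hCDK6del, the same plasmid with guide RNAs against Cdk6, which encodes a cyclin D-dependent kinase. In both groups GFP-positive cells were sorted and plated singly, and loss of CDK6 protein was checked by Western blot, per the labels. The labels give no parent or passage for the lines and do not say that they were separate cultures, so p-values measure the spread between these libraries, 1 per line or clone.

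Proteasomes cut cytosolic proteins into peptides. In the immunoproteasome the constitutive catalytic subunits Psmb5, Psmb6 and Psmb7 are replaced by the interferon-inducible Psmb8, Psmb9 and Psmb10, and Psme1 and Psme2 form the PA28 activator that caps the core particle. Peptides enter the endoplasmic reticulum through the transporter built from Tap1 and Tap2. Tapasin (Tapbp) and its relative TAPBPR (Tapbpl) help class I molecules exchange weak for strong peptides. Nlrc5 is a transactivator of class I genes and of several genes of this pathway, and it acts through the SXY promoter module. Lymphoid cells carry immunoproteasomes without added interferon.

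The 10 genes lie at 5 loci of the GRCm38 build. In the MHC on chromosome 17 lie Tapbp (33915899 to 33929292), Psmb9 (34181987 to 34187764), Tap1 (34187553 to 34197225), Psmb8 (34197721 to 34201454) and Tap2 (34203527 to 34216321). Psme1 (55578123 to 55581529) and Psme2 (55587441 to 55591113) are neighbours on chromosome 14. Nlrc5 (94434356 to 94527272) and Psmb10 (105935735 to 105938444) lie far apart on chromosome 8, and Tapbpl (125223933 to 125231860) lies on chromosome 6. Psmb9 and Tap1 are read in opposite directions, and their RefSeq starts, at 34187330 and 34187556, have 225 bases between them. In the GENCODE annotation 212 exonic bases belong to both, which is 15.7% of the exon length of Psmb9 and 7.18% of that of Tap1. Whether counting used strand is not given in the sources used here. It is therefore not known how reads from that overlap were assigned. The same holds for Tap2, which shares 15.0% of its exon length with the antisense gene Gm15821, and for Psmb8, which shares 11.4% with Gm20496. Tapbp shares 23.5% with the antisense gene Gm19412, which has no row in the count table.

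Short promoter stretches are shown because Tap1 and Psmb9 share theirs and because their motifs are those of the factors described further on. RefSeq promoters of GRCm38.p6 were matched for 7 of the 10 members, all but Tap2, Tapbpl and Nlrc5. The 250 bases before each start were searched on both strands. For Tapbp, Psmb8 and Psmb9 these windows lie inside the GENCODE spans given above, so their matches are not upstream of the whole span. The ISRE-like interferon response motif (GAAA, 2 bases, GAAA) occurred in 2.98% of all 32851 promoters and in 0 of the 7 members, and the NF-kB-like motif (GGGA, 4 bases, CC) occurred in 17.6% and in 0 of the 7. The STAT-like motif TTCNNNGAA occurred in 7.02% of promoters and, among the 7, in Psmb8. The motif TGACG, the core of the X2 box of the SXY module, occurred in 17.8% of promoters and in Tap1, Psmb9 and Psme2. CCAAT, the core of the Y box, occurred in 33.8% and in Tap1, Psmb9 and Tapbp. Tapbp held it at 248 to 244 and at 165 to 161 bases before its start, and only the latter is printed. The matches of Tap1 and Psmb9 are the same bases, 86 to 82 (TGACG) and 222 to 218 (CCAAT) before the start of Tap1, and no other matches overlapped. In these stretches, written 5′ to 3′ on the strand named, capitals mark the match, and CGTCA and ATTGG are TGACG and CCAAT on the other strand.
Tap1 and Psmb9, TGACG, plus strand, chr17:34187458-34187487: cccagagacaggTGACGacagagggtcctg
Tap1 and Psmb9, CCAAT, plus strand, chr17:34187322-34187351: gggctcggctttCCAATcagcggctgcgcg
Psmb8, STAT-like, plus strand, chr17:34198088-34198117: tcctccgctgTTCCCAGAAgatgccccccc
Tapbp, CCAAT, plus strand, chr17:33919301-33919330: attaaaatatttATTGGtcacttcacttgg
Psme2, TGACG, minus strand, chr14:55591243-55591272: tcctcagtctagCGTCAtggaaccccacct
A match describes the letters of this window only.

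Levels are given as CPM, counts scaled to the same library total, after TMM scaling, which corrects totals for composition. Totals lay between 17859519 and 24108563 counts, and 3 counts were worth 0.125 to 0.165 CPM. KO2 stood apart from the other libraries. It lay at 112.5 on the first principal component, which held 67.9% of the variance, WT2 lay at 12.6 and the other 4 between -38.4 and -28.3. Cdk6 transcripts did not separate the groups, with 39.7 to 55.9 CPM in WT and 39.0 to 75.2 CPM in KO (log2 fold change 0.14 ± 0.29 SE, edgeR adjusted p = 0.90). The level of the whole transcript therefore does not check the labels, and WT and KO name the libraries as labelled. All 10 B lineage markers were expressed, with summed levels of 4477 to 4665 CPM in WT and 3889 to 5047 CPM in KO. Markers of other cells that express the members were also read. The 7 dendritic cell markers summed to 0.584 to 3.89 CPM in WT and 0.662 to 3.08 CPM in KO, with Siglech and Batf3 at 0. That sum was highest in WT2 and KO2, where most of it was Ccr7, while Itgax lay at 0.320 and 0 CPM there. The 8 macrophage markers summed to 158.8 to 199.5 CPM in WT and 154.1 to 220.2 CPM in KO, most of it Mrc1 (116 to 194 CPM). Lyz2 (12.2 to 38.9 CPM), Fcgr1 (6.40 to 20.9), Itgam (0.257 to 28.9) and Cd68 (3.07 to 4.82) were present, while Cd14 was at or under 1.42 CPM, Csf1r at or under 0.110 CPM and Adgre1 (listed as Emr1) at 0. KO2 had the highest macrophage sum, and the part of these markers in the members' levels was not tested. In bulk RNA fewer cells of a type and less RNA per cell cannot be told apart.

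The comparison of KO with WT addresses whether transcripts of this machinery differ with the Cdk6 genotype. All 10 members had a positive log2 fold change (52.8% of all tested genes did), from 0.13 for Psme2 to 0.79 for Nlrc5, with a median of 0.52 against 0.01 over all tested genes. By edgeR's quasi-likelihood test with Benjamini-Hochberg adjustment 0 of 10 passed an adjusted p of 0.05 (0% of all tested genes passed), and the adjusted p lay between 0.51 and 0.87. At an unadjusted p under 0.05 the same test gave 2 of 10, Tap1 and Tap2 (9.45% of all tested genes), both higher in KO (4.35%). DESeq2 called 0 of 10 (1.94% of the genes it adjusted) and limma-voom called 0 of 10 (0%). The groups separated in 0 of 10 members, against 19.6% of all tested genes. The members' median depended on single libraries: it was 0.13 without KO2, with 4 of the 10 fold changes negative, and 0.81 without WT2.

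The same libraries were high for every member. KO2 was the highest of the 6 libraries for 10 of 10 members (31.1% of all tested genes) and WT2 was the highest WT library for 10 of 10 (41.7%). KO1, KO2 and WT2 were the 3 highest libraries for 10 of 10, an order that 7.15% of all tested genes had. These orders were chosen after the values were seen. Relative to the mean of WT on the log2 scale, the members' median lay at -0.25 (WT1), 0.44 (WT2) and -0.19 (WT3), against 0.49 (KO1), 0.87 (KO2) and -0.28 (KO3). The library KO3 divided the members. It lay above both WT1 and WT3 for Tap1, Tap2, Psmb9 and Nlrc5 (42.3% of all tested genes), and it was the lowest of all 6 for Tapbp, Tapbpl, Psmb10, Psme1 and Psme2 (22.7%). Psmb8 in KO3 lay between WT1 and WT3. With KO3 set aside, KO1 and KO2 lay above every WT library for 7 of 10 members (13.5% of all tested genes), all but Tapbpl, Psmb10 and Psme1. With WT2 set aside, every KO library lay above WT1 and WT3 for 4 of 10 (14%), and with KO2 set aside as well the 4 were again Tap1, Tap2, Psmb9 and Nlrc5 (26.1%).

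**Figure D1:**
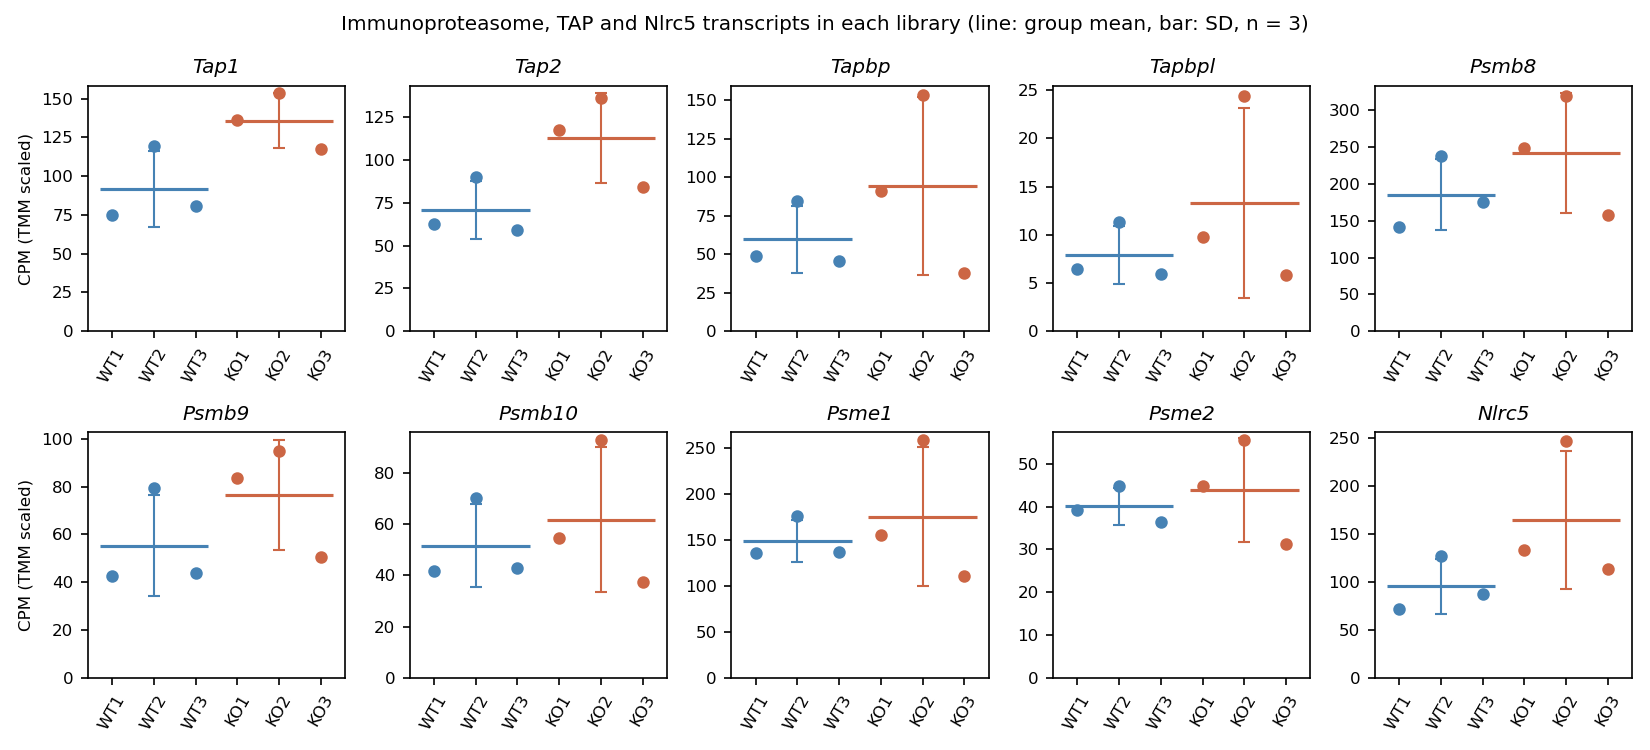
CPM of each member in the 3 WT and 3 KO libraries, with the group mean and SD (n = 3). KO2 is the highest library and WT2 the highest WT library in every panel of a member, and the groups overlap in each.

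Tap1 and Tap2, the chains of the peptide transporter, came closest to separating the groups. Tap1 lay at 74.8 CPM (WT1), 119.5 (WT2) and 80.7 (WT3), against 136.2 (KO1), 153.6 (KO2) and 117.7 (KO3). Every KO library was above WT1 and WT3, and the groups overlapped only because WT2 lay just above KO3. The means were 91.7 ± 24.3 CPM (SD, n = 3) and 135.9 ± 17.9 CPM, a log2 fold change of 0.57 ± 0.21 SE (edgeR adjusted p = 0.51). Tap2 lay at 62.4 CPM (WT1), 90.2 (WT2) and 59.4 (WT3), against 117.6 (KO1), 136.3 (KO2) and 84.3 (KO3). Again KO3 was the only KO library below WT2. Its means were 70.7 ± 17.0 and 112.8 ± 26.3 CPM, a log2 fold change of 0.67 ± 0.24 SE (edgeR adjusted p = 0.51). DESeq2 without WT2, a fit chosen after the values were seen, called both genes, among 2.42% of the genes it adjusted. Tap1 was at 0.81 (DESeq2 adjusted p = 1.35e-05) and Tap2 at 0.89 (DESeq2 adjusted p = 0.00758). Setting WT2 aside removes the overlap of the groups, so these calls are not separate support. With the same libraries edgeR gave an adjusted p of 0.84 for each. The ratio of Tap1 to Tap2 counts per kilobase stayed between 1.31 and 1.63 over the 6 libraries.

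Nlrc5 had the largest fold change of the 10 over all 6 libraries. It lay at 71.3 CPM (WT1), 127.2 (WT2) and 86.9 (WT3), against 133.2 (KO1), 246.4 (KO2) and 113.4 (KO3). KO1 and KO2 were above every WT library, and KO3 was above WT1 and WT3 but below WT2. The means were 95.1 ± 28.8 CPM (SD, n = 3) and 164.3 ± 71.8 CPM, a log2 fold change of 0.79 ± 0.36 SE (edgeR adjusted p = 0.55). Without KO2 it was 0.38. Without both WT2 and KO2, a choice made after the values were seen, it was 0.65 (edgeR adjusted p = 0.23). DESeq2 then called Nlrc5 (adjusted p = 0.00312), among 2.89% of the genes it adjusted. It also called Tap1 (0.71, DESeq2 adjusted p = 1.03e-05) and Tap2 (0.73, DESeq2 adjusted p = 0.00713). With WT2 set aside every KO library lies above WT1 and WT3 for these genes, so the calls are not separate support.

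The tapasin genes spread more than any other members. Tapbp lay at 48.6 CPM (WT1), 84.6 (WT2) and 45.6 (WT3), against 91.3 (KO1), 153.5 (KO2) and 38.0 (KO3). KO3 was the lowest and KO2 the highest of all libraries, 4.04-fold apart, so the KO group enclosed the WT group. The log2 fold change was 0.66 ± 0.53 SE (edgeR adjusted p = 0.72) and 0.12 without KO2. Tapbpl, at low levels, lay at 6.47 CPM (WT1), 11.4 (WT2) and 5.89 (WT3), against 9.72 (KO1), 24.4 (KO2) and 5.77 (KO3). It had the widest range of the 10, 4.23-fold between KO2 and KO3, and its log2 fold change of 0.75 ± 0.59 SE (edgeR adjusted p = 0.71) was -0.02 without KO2.

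In the 3 inducible catalytic subunits KO2, KO1 and WT2 were again the highest libraries, with smaller differences between the groups. Psmb8, which replaces Psmb5, lay at 142.2 CPM (WT1), 237.7 (WT2) and 176.0 (WT3), against 249.4 (KO1), 320.3 (KO2) and 157.8 (KO3) (log2 fold change 0.39 ± 0.31 SE, edgeR adjusted p = 0.71). KO1 and KO2 were above all WT libraries, and KO3 was above WT1 alone. Psmb9, which replaces Psmb6, lay at 42.7 CPM (WT1), 79.5 (WT2) and 43.7 (WT3), against 83.6 (KO1), 94.9 (KO2) and 50.6 (KO3) (0.47 ± 0.34 SE, adjusted p = 0.69 by edgeR). Here KO3 was above WT1 and WT3. Psmb10, which replaces Psmb7, lay at 41.7 CPM (WT1), 70.4 (WT2) and 42.9 (WT3), against 54.8 (KO1), 93.0 (KO2) and 37.5 (KO3) (0.26 ± 0.39 SE, adjusted p = 0.86 by edgeR), and KO2 alone was above WT2. Without KO2 the log2 fold changes were 0.14, 0.29 and -0.16.

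The constitutive counterparts were lower in KO in every library. Psmb5 lay at 66.1 CPM (WT1), 75.3 (WT2) and 66.7 (WT3), against 60.8 (KO1), 63.4 (KO2) and 58.9 (KO3) (log2 fold change -0.18 ± 0.08 SE, edgeR adjusted p = 0.54). Psmb6 lay at 208.0 CPM (WT1), 213.7 (WT2) and 208.1 (WT3), against 194.5 (KO1), 175.4 (KO2) and 163.1 (KO3) (-0.24 ± 0.08 SE, edgeR adjusted p = 0.50). Psmb7 lay at 188.9 CPM (WT1), 200.9 (WT2) and 196.9 (WT3), against 174.6 (KO1), 156.0 (KO2) and 158.8 (KO3) (-0.26 ± 0.07 SE, edgeR adjusted p = 0.48, DESeq2 adjusted p = 0.0474), with 34.9% of its exon length shared with Nek6. These genes did not follow the members: WT2 was no higher than 0.12 and KO2 lay between -0.33 and -0.13 on the log2 scale relative to WT. The ratio of each inducible to its constitutive subunit, in counts per kilobase, was compared by an exact two-sided permutation test, whose smallest p with 3 against 3 libraries is 0.1. Psmb8 to Psmb5 was 1.19, 1.74 and 1.46 in WT and 2.26, 2.79 and 1.48 in KO (log2 difference 0.54, exact p = 0.2, adjusted over the 3 ratios 0.3). Psmb9 to Psmb6 was 0.121, 0.220 and 0.124 in WT and 0.254, 0.319 and 0.183 in KO (0.72, exact p = 0.2, adjusted 0.3). Psmb10 to Psmb7 was 0.195, 0.310 and 0.193 in WT and 0.278, 0.527 and 0.209 in KO (0.46, exact p = 0.5, adjusted 0.5). All 3 pairs of groups overlapped, with KO3 below WT2 each time. Within each replicate number the KO ratio was above the WT ratio in 9 of 9 cases. These cases are 3 ratios in the same 3 pairs of libraries, not 9 separate observations, and no label ties a number to a culture or day. The exact paired test gave p = 0.25 for each ratio, the smallest it can give with 3 pairs. Without KO2 the log2 differences were 0.34, 0.53 and 0.088.

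**Figure D2:**
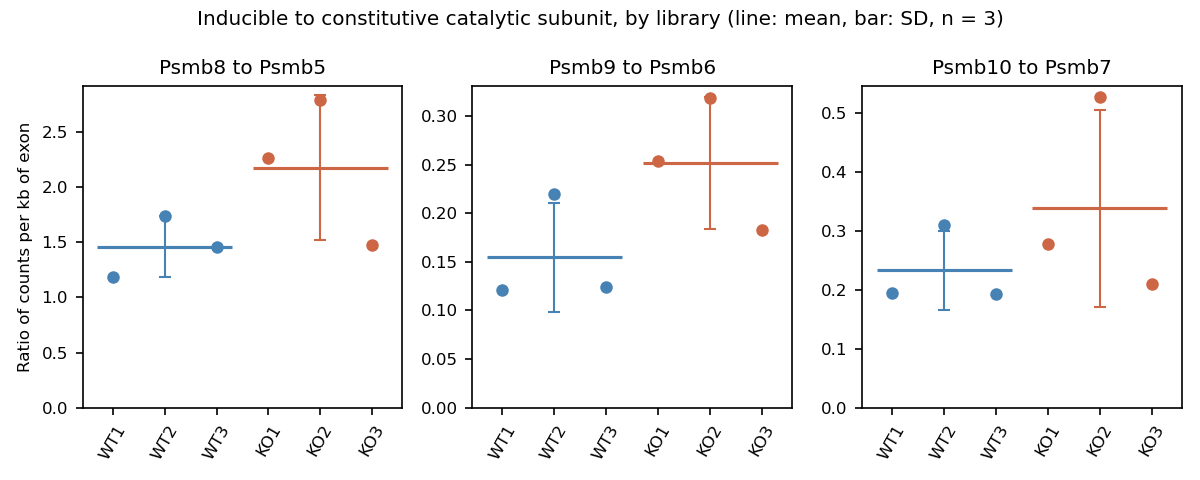
Ratio of each inducible to its constitutive catalytic subunit (counts per kilobase of exon, linear axes from 0) in the 6 libraries, with the group mean (line) and SD (bar, n = 3). KO1 and KO2 lie above WT1 and WT3 in all 3 panels, and KO3 lies below WT2.

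Psme1 and Psme2, the PA28 subunits, differed least. Psme1 lay at 135.3 CPM (WT1), 175.6 (WT2) and 136.4 (WT3), against 155.9 (KO1), 259.2 (KO2) and 111.0 (KO3) (log2 fold change 0.23 ± 0.32 SE, edgeR adjusted p = 0.84). KO2 was high and KO3 low, with KO1 inside the WT range. Psme2 lay at 39.2 CPM (WT1), 44.8 (WT2) and 36.4 (WT3), against 44.9 (KO1), 55.6 (KO2) and 31.3 (KO3) (0.13 ± 0.22 SE, edgeR adjusted p = 0.87), with the smallest range of the 10, 1.78-fold. Without KO2 the log2 fold changes were -0.16 and -0.07. The processed copy Psme2b-ps has a row of its own with 41 to 67 counts, against 662 to 1084 for Psme2, so some reads may be split between them. Psme1 to Psme2 in counts per kilobase was 3.03 to 4.09. Of the other proteasome activators, Psme3 had a log2 fold change of -0.13 ± 0.05 SE and Psme4 of 0.10 ± 0.12 SE, and neither was called.

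Levels of different genes were compared per kilobase of exon. In WT, Psme1 (134.1 ± 20.7 CPM per kb, SD, n = 3) and Psmb8 (113.8 ± 29.7) were highest, and their ranges overlapped. Psme2 (41.1 ± 4.38), Psmb9 (40.9 ± 15.5), Psmb10 (39.4 ± 12.4), Tap1 (31.1 ± 8.23), Tapbp (20.6 ± 7.48) and Tap2 (20.5 ± 4.93) followed, each overlapping the next. Nlrc5 (11.7 ± 3.55) and Tapbpl (3.36 ± 1.28) were lowest and overlapped neither each other nor Tap2. In KO, Psme1 (157.7 ± 68.3 CPM per kb) and Psmb8 (148.9 ± 50.0) were again highest and Nlrc5 (20.2 ± 8.84) and Tapbpl (5.65 ± 4.17) lowest. Of the 9 steps of that order 7 overlapped, the exceptions being Psmb8 above Psmb9 and Nlrc5 above Tapbpl.

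**Figure D3:**
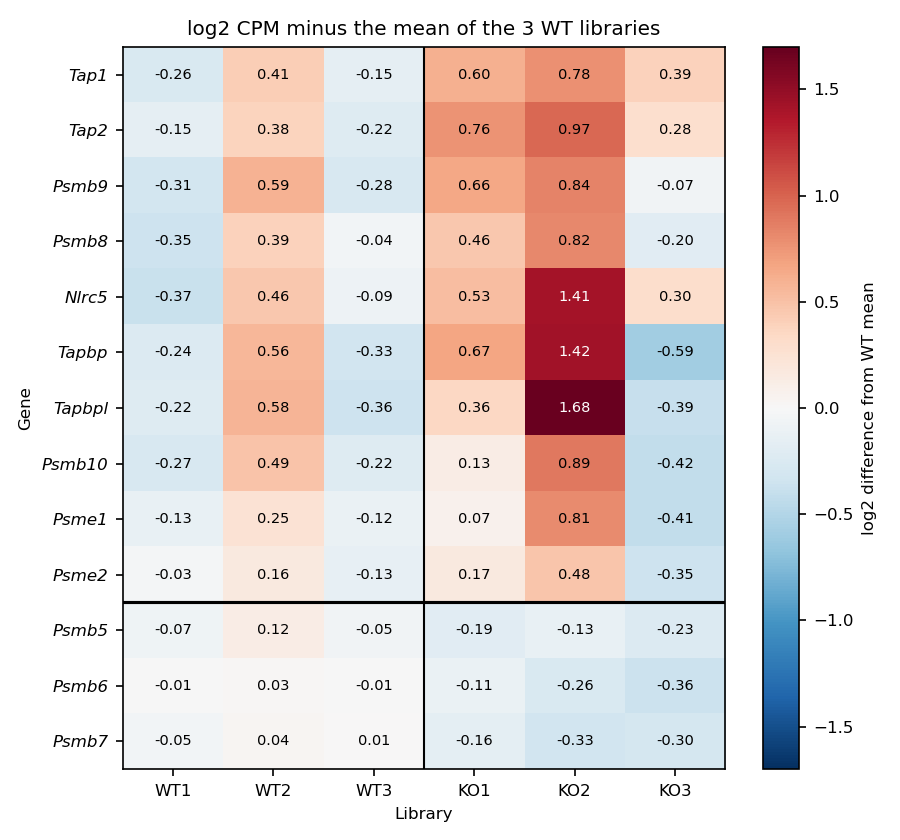
Log2 CPM of the members and of Psmb5, Psmb6 and Psmb7 in each library, relative to the WT mean. Members reach 1.68 in KO2 (Tapbpl), while the 3 constitutive subunits lie at or below -0.11 in every KO library.

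Profiles over the 6 libraries were compared by the root mean square difference of centred log2 CPM, as a description. The closest members were Tap1 and Tap2 (0.12), Psmb10 and Psme1 (0.13) and Psmb8 and Psmb9 (0.15), and the most distant were Tap1 and Tapbpl (0.51). Among the 9284 genes whose mean reached 5 CPM, the genes most like the mean profile of Tap1, Tap2, Psmb8 and Psmb9 were Gpr97 (0.09), H2-T22 (0.10), Ifi47 (0.11), Lpxn (0.11) and H2-T23 (0.12), against a median of 0.44. H2-T22 and H2-T23 are nonclassical class I genes and Ifi47 encodes an interferon-induced GTPase. The genes most like Nlrc5 were Vamp1 (0.12), 1700010I14Rik, Orai3, Agxt2l2 and Pyhin1 (0.14), against a median of 0.59. All of these comparisons share the same 6 libraries, in which KO2 is high.

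The other genes of the pathway were read from 11 lists, and by edgeR's adjusted p 0 of their 98 tested members passed, while DESeq2 called 10 (1.94% of the genes it adjusted). The constitutive proteasome lay on the other side of 0 from the members. All 38 genes of the 20S core, its assembly factors and the 19S particle had a negative log2 fold change (47.2% of all tested genes did; 37 of 38 when scaled by library totals alone), with a median of -0.19, and in 26 of 38 every KO library lay below every WT library (11% of all tested genes). At an unadjusted p under 0.05 edgeR gave 17 of 38 (9.45% of all tested genes), and DESeq2 called 4, Psmb7, Psmc1, Psmc5 and Psmd2 (1.94% of the genes it adjusted). Psmd2, a scaffold of the 19S base, had a log2 fold change of -0.19 ± 0.05 SE (edgeR adjusted p = 0.48, DESeq2 adjusted p = 0.0114). Leaving out KO2 gave a median of -0.19, and leaving out WT2 as well gave -0.17, with 37 of 38 negative each time.

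The class I genes that receive the peptides had positive log2 fold changes in 10 of 10, with a median of 0.58, and 7 of 10 had an unadjusted p under 0.05 by edgeR (9.45% of all tested genes). In 5 of 10 every KO library lay above every WT library (8.58% of all tested genes), and DESeq2 called H2-K1, H2-Q4, H2-Q6, H2-Q7 and H2-M3 (1.94% of the genes it adjusted). H2-K1, a classical heavy chain, lay at 259.7 CPM (WT1), 307.3 (WT2) and 257.0 (WT3), against 405.3 (KO1), 432.9 (KO2) and 386.1 (KO3), a log2 fold change of 0.57 ± 0.09 SE (edgeR adjusted p = 0.48, DESeq2 adjusted p = 2.81e-05). Here KO3 stood with KO1 and KO2, unlike in the members. Reads of the near-identical H2-Q genes may be divided among them. Of the 8 genes of peptide trimming and class I folding 4 were positive, with a median of 0.00, and Lnpep, an aminopeptidase, had the largest value (0.48 ± 0.23 SE, edgeR adjusted p = 0.56), which was 0.18 without KO2.

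Among the factors of the SXY module, Rfx5, a subunit of the RFX complex through which Nlrc5 reaches promoters, lay at 26.8 CPM (WT1), 23.7 (WT2) and 27.2 (WT3), against 46.3 (KO1), 35.7 (KO2) and 52.3 (KO3) (0.79 ± 0.16 SE, edgeR adjusted p = 0.48, DESeq2 adjusted p = 0.00614). KO3 was its highest library, where Nlrc5 was the lowest of the KO libraries. Atf1 (-0.24 ± 0.07 SE) and Nfyc (-0.22 ± 0.10 SE) lay below 0 and were not called, and Ciita did not pass the filter. Of the 15 interferon receptor, JAK-STAT and IRF genes 13 were positive, with a median of 0.27, and 4 had an unadjusted p under 0.05 by edgeR (9.45% of all tested genes), Stat2 (0.45 ± 0.14 SE) and Ifnar1 (0.27 ± 0.08 SE) among them. The 9 tested interferon-induced GTPases were all positive, apart from 2 that were negative by limma-voom, with a median of 0.24, which was -0.14 without KO2. Gbp2 lay at 15.3 CPM (WT1), 42.6 (WT2) and 13.9 (WT3), against 21.3 (KO1), 144.9 (KO2) and 9.41 (KO3), so WT2 and KO2 were its highest libraries. Of the 14 antiviral genes listed, 8 passed the filter, and these were positive with a median of 1.35. Without KO2 the median was 0.92, with 1 negative. Levels were low: Oas3 lay at 0.160 to 0.334 CPM in WT and at 0.667 to 1.47 CPM in KO. A gene that low in WT can pass the filter through its KO libraries alone. The count of positive genes and the median are therefore no support for a difference.

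**Figure D4:**
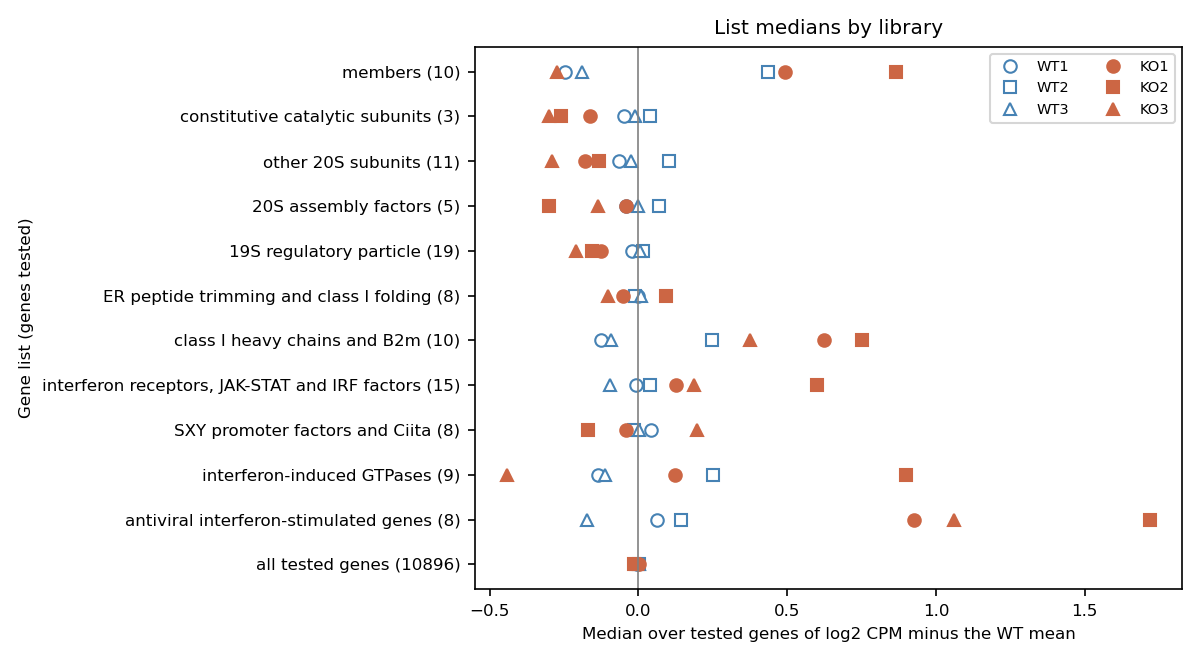
Median log2 CPM of the members and of the pathway lists in each library, relative to the WT mean. The members' median is -0.28 in KO3 and 0.87 in KO2, whereas the class I list is above 0.37 in all 3 KO libraries.

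Neighbouring genes within 500 kb were set beside the members, to show whether a whole region was high in KO2. Around the chromosome 17 genes the 41 tested neighbours had a median log2 fold change of 0.05, and the 19 around Psme1 and Psme2 had 0.06. The 15 around Nlrc5 had -0.11 and the 22 around Psmb10 had 0.02. In KO2 alone the neighbours of Nlrc5 had a median of -0.13 relative to WT, where Nlrc5 itself was at 1.41. The neighbours of the chromosome 17 genes had 0.10, where Tap1 was at 0.78, Psmb8 at 0.82, Psmb9 at 0.84, Tap2 at 0.97 and Tapbp at 1.42. Those of Psme1 and Psme2 had 0.22, where Psme1 was at 0.81 and Psme2 at 0.48. Those of Psmb10 had -0.044, where Psmb10 was at 0.89. Of the 19 neighbours of Tapbpl 17 had a positive log2 fold change (52.8% of all tested genes did), with a median of 0.16. Their median in KO2 was 0.56, beside 1.68 for Tapbpl. Without KO2 the median fold change of these neighbours was -0.033, and without WT2 as well it was -0.0053. The part of the region in the levels of Tapbpl, Psme1 and Psme2 was not tested.

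**Figure D5:**
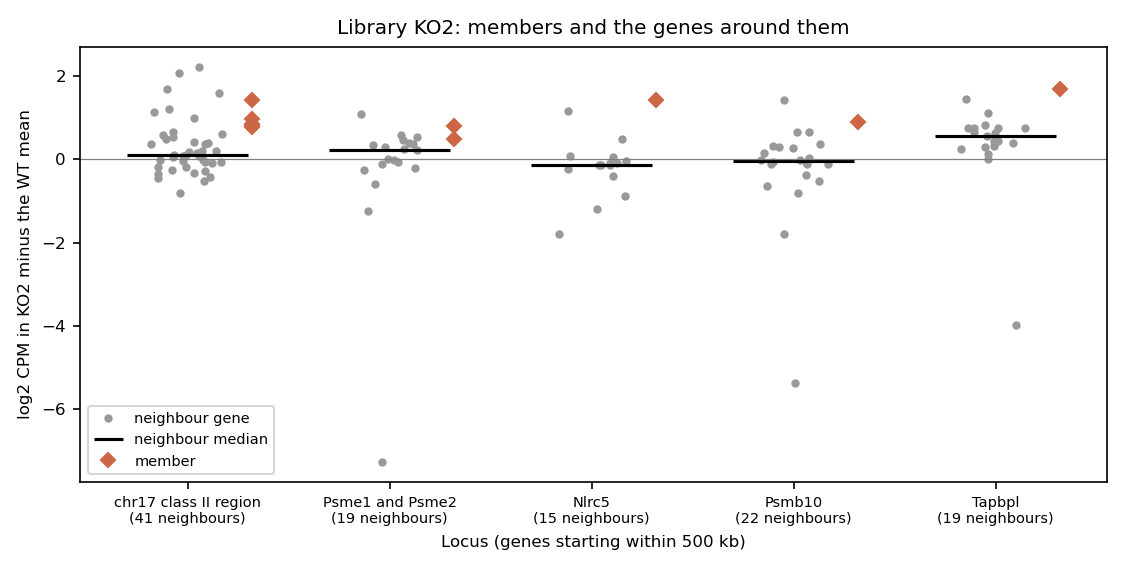
Log2 CPM in KO2 relative to the WT mean for members and for their tested neighbours within 500 kb, by locus. The neighbours' median is 0.56 at Tapbpl and between -0.13 and 0.22 at the other loci.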

How the data were processed

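RNA of the 6 lines was extracted with RNeasy and made into TruSeq libraries, per the labels' protocols. The authors deposited counts per gene symbol, without normalization, 1 column per library. The build GRCm38 and the tools Trim Galore, STAR and DESeq2 are named in the submitters' processing notes. The counter, tool versions and use of strand were not given in the sources used here. Groups came from the sample titles.

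The members and lists were chosen with earlier results of these data known. Counts were fitted over all rows with edgeR 4.0.16 in R 4.3.3 (TMM, filterByExpr, robust quasi-likelihood test, two-sided, Benjamini-Hochberg adjusted p under 0.05), without a block. Alternatives were DESeq2 1.42.0, limma-voom (limma 3.58.1), RLE factors, library totals, no filter, at least 1 CPM in 3 libraries, non-robust fitting, the replicate number as a block, and each library left out. Fits without both WT2 and KO2, and DESeq2 fits lacking WT2, KO2 or both, were chosen after seeing the data. DESeq2 gave no adjusted p for 14753 rows. The tests were checked on simulated data.

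Named genes were the members, Psmb5, Psmb6, Psmb7 and Cdk6, genes among the 3 smallest edgeR p of each list, the 5 genes most like each of 2 profiles, and genes that DESeq2 called, the last named after their values were seen. Of these, 1 list gene is not reported here. All 107 list genes had a row, 1 by an older symbol. Log2 CPM used a prior count of 2 and subunit ratios a pseudocount of 0.5 counts. Exon lengths and gene positions are from GENCODE, and promoters and neighbours from RefSeq.

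Same-numbered WT and KO libraries were checked for pairing by the correlation of their deviations from the group means, which was 0.33, 0.64 and 0.46 for numbers 1, 2 and 3. Each exceeds 0.1, although no label ties a number to a culture or day. Across numbers, WT1 with KO3 gave 0.41 and WT3 with KO1 gave 0.36, both above the 0.33 of number 1. The remaining pairs across numbers, each with WT2 or KO2, were negative. Counting intervals and floors cover counting error only.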

Additional observations from a re-analysis of the deposited data

How the results depend on the processing

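The fold changes of Tap1 (0.44 to 0.81), Tap2 (0.52 to 0.89), Nlrc5 (0.38 to 1.06), Tapbp, Psmb8 and Psmb9 stayed positive under all 18 alternatives. With 1 library left out, those of Tapbpl (-0.024 to 1.11), Psmb10 (-0.16 to 0.55), Psme1 (-0.16 to 0.48) and Psme2 (-0.069 to 0.32) were negative without KO2. DESeq2 without KO2 gave -0.025, -0.16, -0.16 and -0.071, and Psme1 without WT2 and KO2 was -0.021 in edgeR and -0.022 in DESeq2. With 1 library left out the members' median was 0.13 (without KO2) to 0.81 (without WT2), and the log2 differences of the subunit ratios were 0.34 to 0.80 (Psmb8), 0.53 to 1.00 (Psmb9) and 0.088 to 0.76 (Psmb10). Members past the test numbered 0 except in DESeq2 without WT2 and without WT2 and KO2. There they numbered 2 (2.42% of all adjusted genes passed) and 3 (2.89%). Members whose groups did not overlap numbered 1 with library totals and 0 to 7 with 1 library left out. Without WT2 and KO2 they numbered 4 in edgeR and in DESeq2, and in DESeq2 without WT2 they numbered 4. With fewer libraries groups separate more easily. Without KO3, KO1 and KO2 lay above every WT library in 13.5% of all tested genes. Without WT2, 14% had every KO library above WT1 and WT3, and without KO2 as well 26.1% had KO1 and KO3 above them. Those shares count KO above WT only, and no share is given for the other settings. Pathway genes past the test numbered 10 in DESeq2, where 1.94% of all adjusted genes passed. Without WT2 DESeq2 called 10 (2.42%), and without WT2 and KO2 it called 10 (2.89%). Without KO2 alone it called 13, and the share of all genes is not given for that fit. The Cdk6 fold change was -0.22 to 0.31 with 1 library left out, -0.24 without WT2 and KO2, -0.23 in DESeq2 without KO2 and -0.25 without both.

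Neighbour medians with 1 library left out were 0.015 to 0.13 on chromosome 17, 0.064 to 0.12 at Psme1 and Psme2, -0.12 to -0.034 at Nlrc5, -0.058 to 0.058 at Psmb10 and -0.033 (without KO2) to 0.31 (without KO1) at Tapbpl. Without WT2 and KO2 they were 0.19 at Psme1 and Psme2 (0.19 in DESeq2) and 0.013 at Nlrc5 (0.037 in DESeq2, and -0.035 in DESeq2 without KO2). At Psmb10 the median was -0.042 with limma-voom and -0.040 with the replicate block. The cause of these shifts was not tested. The replicate block left the members' median at 0.49 and changed no call. It has no value for a count of groups that do not overlap.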
